A study of Mus musculus with 12 samples.

Results

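Cyclins, cyclin-dependent kinases (CDKs) and CDK inhibitors were followed in the nuclear RNA of adult mouse heart muscle cells with and without an activated form of the co-activator YAP. The members were chosen by gene symbol alone: every row of the count table named Ccn plus a letter and an optional number, Cdk plus a number, or Cdkn plus a digit and a letter from a to d. This gave 49 of 46983 rows, of which 24 were cyclins, 18 were CDKs and 7 were inhibitors. Of these, 46 passed the filter on low counts and entered the test. The other 3 were Ccna1 (0 counts in both control libraries, 0 and 1 in YAP5SA), Ccnb3 (0 counts in all 4 libraries) and Ccno (10 and 1 counts in control, 3 and 2 in YAP5SA).

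The control group was adult Myh6-MCM mice given tamoxifen, and the YAP5SA group was adult Yap5SA+/tg; Myh6-MCM mice given tamoxifen, so that both groups carried the same Cre transgene and received the same drug. Myh6-MCM is an inducible Cre recombinase driven by the promoter of Myh6, the adult cardiac myosin heavy chain gene, which limits recombination to heart muscle cells. YAP5SA is a YAP protein in which serines used for its inhibition by the Hippo pathway are replaced by alanine. Nuclei were captured on beads through PCM1, a centriolar satellite protein at the nuclear surface of heart muscle cells, and their total RNA was sequenced from 2 libraries per group. The time after tamoxifen and the number of animals per library are not stated in the labels.

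Library totals ran from 7850661 to 15012122 counts, and the members took 0.236% to 0.275% of them. The 2 control libraries differed from each other more than the 2 YAP5SA libraries did, with a biological coefficient of variation across genes of 34.3% against 8.44%, and several members below carry that spread. Most of the defining genes of heart muscle were abundant in all libraries. The summed level of 8 such markers (Myh6, Tnnt2, Tnni3, Ryr2, Actn2, Ttn, Myl2 and Nppa) was 31530 and 63500 CPM in control replicates 1 and 2 and 22250 and 23410 CPM in YAP5SA replicates 1 and 2. CPM is the count scaled to a common library size. Ttn alone made up 19900 and 48150 CPM of these sums in control and 15500 and 16680 CPM in YAP5SA. Nppa was the lowest of the 8, at 70.0 and 225 CPM in control and 47.5 and 84.1 CPM in YAP5SA. In bulk nuclei, a change in the number of nuclei of a type and a change in RNA per nucleus cannot be told apart.

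A CDK is inactive until a cyclin binds it, and the level of many cyclins rises and falls through the division cycle. D-type cyclins with CDK4 and CDK6 act in the first gap phase by phosphorylating RB, E-type cyclins with CDK2 act at entry into DNA synthesis, and A-type and B-type cyclins with CDK2 and CDK1 carry the cell through DNA synthesis into mitosis. Inhibitors of the INK4 family bind CDK4 and CDK6, and those of the CIP/KIP family bind cyclin-CDK complexes more broadly. Other cyclin-CDK pairs phosphorylate RNA polymerase II and the Mediator complex and do not cycle in the same way. Adult heart muscle cells of mammals rarely divide, and most carry low levels of the mitotic cyclins.

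Among the cyclins and CDKs, the calls were all toward higher levels in YAP5SA, and none was a gene of transcription. With edgeR, 5 of 46 tested members rose (10.9%) against 3.12% of all 17715 tested genes, and 0 fell against 0.999%. The 5 were Ccna2, Ccnb2, Cdk6, Cdk15 and Cdk18. At an unadjusted p under 0.05, 16 members were higher (34.8%, with 12.7% of all genes) and 0 were lower (10.9% of all genes). Both YAP5SA libraries lay above both control libraries for 19 members, or 41.3%, against 28.1% of all genes, and below both for 5 members, or 10.9%, against 28.3%. Cdk15 (0 counts in each control library) and Cdkn2a (2 and 3 counts) passed the low-count filter only through their YAP5SA libraries, so they could only come out higher. Cdk15 is in all of these upward counts, and Cdkn2a is in those at an unadjusted p and without overlap. The median log2 fold change (YAP5SA minus control) over tested members was 0.22, beside -0.06 over all tested genes.

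**Figure D1:**
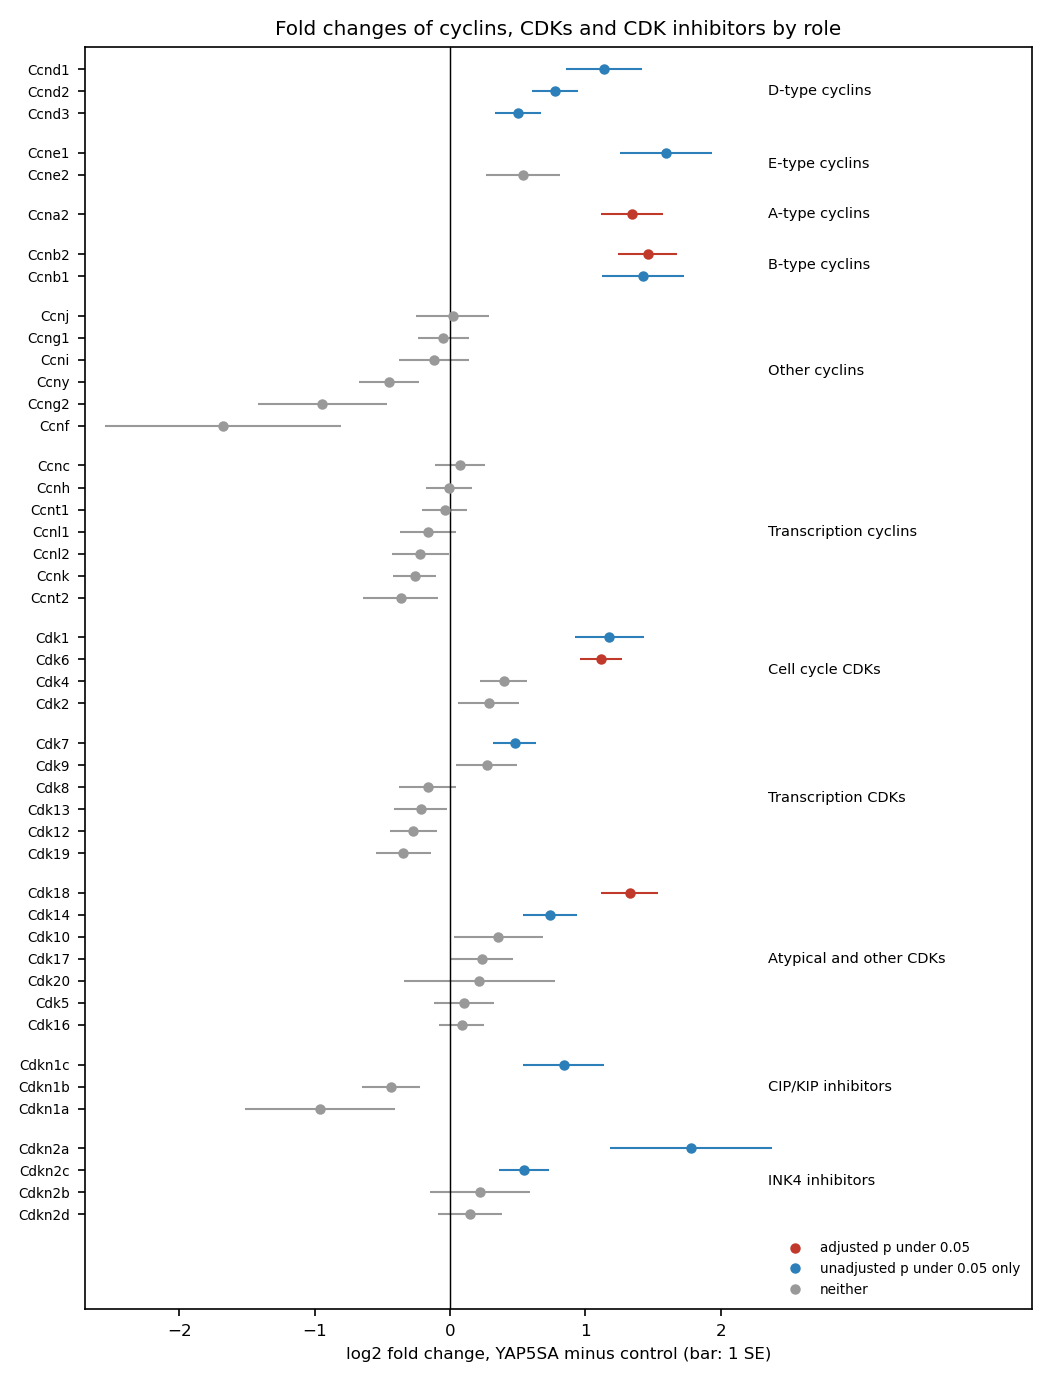
Fold changes of 45 tested members by role, with log2 fold change (YAP5SA minus control) on the horizontal axis and genes on the vertical axis; points are edgeR estimates, bars are 1 standard error, and colour marks whether the adjusted p, only the unadjusted p, or neither was under 0.05. All tested D-, E-, A- and B-type cyclins and Cdk1, Cdk2, Cdk4 and Cdk6 lie to the right of 0, while the transcription cyclins and CDKs lie between -0.37 and 0.48; Cdk15, with 0 counts in control, is not drawn.

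The 12 tested cyclins and CDKs of the classical cycle were all higher in both YAP5SA libraries than in both control libraries, as were 28.1% of all tested genes. Their median log2 fold change was 1.13 (range 0.29 to 1.60). Of the 12, 3 rose (Ccna2, Ccnb2 and Cdk6) and 0 fell, against 3.12% and 0.999% of all genes. At an unadjusted p under 0.05, 9 were higher, against 12.7% of all genes. DESeq2 called 8 of them higher, adding Ccnb1, Ccnd1, Ccnd2, Ccne1 and Cdk1, where it called 5.72% of all genes higher. The fits with limma-voom and with the stricter filter called 2, Ccnb2 and Cdk6. Their fold changes were positive in this fit and in each of the 11 alternatives. The median log2 fold change was 1.09 and 1.02 without control replicate 1 or 2, and 1.175 and 0.994 without YAP5SA replicate 1 or 2.

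Markers of other cells also differed between these libraries. Of all tested genes, 3.12% were called higher and 0.999% lower, and 12.7% were higher and 10.9% lower at an unadjusted p under 0.05. Among the markers of macrophages and monocytes, 5 of 13 rose, 0 fell and 12 had positive fold changes, 11 of them at an unadjusted p under 0.05. Their summed level was 888 and 615 CPM in control and 1426 and 1717 CPM in YAP5SA, with no marker at 0. All 7 general proliferation markers had positive fold changes at an unadjusted p under 0.05, and 4 rose. Their summed levels were 231 and 289 CPM in control against 586 and 746 CPM in YAP5SA. Of 12 endothelial markers 2 fell and 0 rose (summed level 1539 to 2370 CPM in control, 1162 to 1239 CPM in YAP5SA). All 12 had negative fold changes, 9 of them at an unadjusted p under 0.05. Of 12 fibroblast markers 2 rose and 0 fell, with 6 positive and 6 negative fold changes (6745 to 8340 CPM, 6448 to 8055 CPM). At an unadjusted p under 0.05, 5 of these 12 were higher and 0 lower. Of 8 smooth muscle and pericyte markers 1 rose and 0 fell (1336 to 1570 CPM, 1507 to 1662 CPM). Of these 8, 5 had negative fold changes, 3 of them at an unadjusted p under 0.05. The marker that rose was Acta2, at 158 and 97.6 CPM in control and 712 and 917 CPM in YAP5SA. Lymphocyte markers had summed levels of 4.76 to 10.1 CPM in control and 2.56 to 3.19 CPM in YAP5SA. Of these, Cd79a measured 7.16 and 1.06 CPM in control and 0.404 and 0.684 CPM in YAP5SA (unadjusted p = 0.0241, adjusted p = 0.148), and Cd3d, Ms4a1 and Nkg7 were among those at 0 in at least 1 library. The 8 heart muscle markers all had negative fold changes (median -1.13), with 0 called and 4 lower at an unadjusted p under 0.05. The part of these cell types in the levels of Ccna2, Ccnb2, Cdk1 and the other cycle genes was not tested.

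Among the D-type cyclins, which link growth signals to the cycle, Ccnd1 showed the largest fold change. Ccnd1 (chromosome 7, 144929931 to 144939925, mm10) measured 67.5 and 39.3 CPM in control and 113 and 122 CPM in YAP5SA (log2 fold change 1.14, SE 0.282, adjusted p = 0.0896). The groups did not overlap, but control replicate 1 was 1.72 times control replicate 2. Ccnd2 (chromosome 6, 127125162 to 127152193) measured 136 and 125 CPM in control and 212 and 233 CPM in YAP5SA (log2 fold change 0.77, SE 0.17, adjusted p = 0.0704). Ccnd3 (chromosome 17, 47505051 to 47599691) measured 53.3 and 45.2 CPM in control and 67.7 and 72.1 CPM in YAP5SA (log2 fold change 0.50, SE 0.171, adjusted p = 0.160). None of the 3 passed with edgeR, while DESeq2 called Ccnd1 and Ccnd2. Exons of Ccnd3 overlap those of Bysl on the other strand, whose own counts were 281 and 222 in control and 640 and 644 in YAP5SA, and reads of the overlap cannot be assigned without the strand setting of the counting.

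Of the E-type cyclins, which start DNA synthesis with CDK2, Ccne1 was low in control and roughly 3-fold higher in YAP5SA. Ccne1 (chromosome 7, 38097984 to 38107534) had 31 and 17 counts in control and 96 and 118 in YAP5SA, or 2.81 and 2.25 CPM against 6.47 and 8.96 CPM. Its log2 fold change of 1.60 (SE 0.341) missed the threshold (adjusted p = 0.0668). Ccne2 (chromosome 4, 11191351 to 11204779) measured 10.5 and 7.14 CPM in control and 12.3 and 13.6 CPM in YAP5SA (log2 fold change 0.54, SE 0.273, adjusted p = 0.296). Its exons overlap those of Ints8 on the other strand, which had 609 and 428 counts in control and 916 and 772 in YAP5SA. The lowest YAP5SA library stood 2.30 times above the highest control library for Ccne1 and 1.17 times above it for Ccne2.

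Ccna2 and Ccnb2 rose, and Ccnb1 did not pass. Ccna2, the A-type cyclin of dividing somatic cells (chromosome 3, 36564865 to 36572150), measured 15.9 and 15.7 CPM in control and 33.4 and 47.2 CPM in YAP5SA, a 2.54-fold increase (log2 fold change 1.35, SE 0.229, adjusted p = 0.0447). The call of Ccna2 was lost with limma-voom (adjusted p = 0.0519), with the stricter filter (0.0512) and with a replicate block (0.0577). It was also lost without YAP5SA replicate 1 or 2, where the log2 fold change was 1.602 and 1.095. The call of Ccnb2 was lost with a replicate block (adjusted p = 0.0609) and without either YAP5SA library. The exons of Ccna2 overlap those of Exosc9 on the other strand, which had 175 and 113 counts in control and 277 and 242 in YAP5SA (log2 fold change 0.27, adjusted p = 0.431). The control libraries nearly coincided, while YAP5SA replicate 2 was the higher of its pair. Ccnb2, a B-type cyclin that activates CDK1 at mitosis (chromosome 9, 70407692 to 70421547), measured 6.52 and 6.74 CPM in control and 16.98 and 19.5 CPM in YAP5SA, a 2.75-fold increase (log2 fold change 1.46, SE 0.218, adjusted p = 0.0368). Ccnb1, the other mitotic B-type cyclin (chromosome 13, 100778650 to 100786570), measured 5.71 and 9.12 CPM in control and 17.7 and 21.9 CPM in YAP5SA. Its log2 fold change of 1.43 was close to that of Ccnb2, but its control libraries differed 1.60-fold, with replicate 2 the higher, and it missed the threshold (SE 0.3, adjusted p = 0.0649).

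The 4 classical CDKs differed in the size of their fold change. Cdk6, one of the partners of the D-type cyclins (chromosome 5, 3341485 to 3531008), measured 58.1 and 62.7 CPM in control and 132 and 129 CPM in YAP5SA, a 2.16-fold increase (log2 fold change 1.11, SE 0.156, adjusted p = 0.0334). Both pairs of libraries agreed closely, and the lowest YAP5SA library was 2.07 times the highest control library. The call of Cdk6 was lost with a replicate block (adjusted p = 0.0609). It was also lost without YAP5SA replicate 1 or 2, where the log2 fold change was 1.124 and 1.147. Cdk4, the other partner (chromosome 10, 127063534 to 127067920), measured 41.1 and 45.9 CPM in control and 53.03 and 61.5 CPM in YAP5SA (log2 fold change 0.40, SE 0.174, adjusted p = 0.243). Cdk1, the mitotic kinase (chromosome 10, 69335146 to 69352938), measured 10.8 and 11.9 CPM in control and 20.8 and 30.5 CPM in YAP5SA (log2 fold change 1.18, SE 0.255, adjusted p = 0.0684). Cdk2, the partner of the E-type and A-type cyclins (chromosome 10, 128697939 to 128705031), measured 13.4 and 10.4 CPM in control and 14.2 and 15.04 CPM in YAP5SA (log2 fold change 0.29, SE 0.226, adjusted p = 0.487), and was not called in any of its 11 alternatives. The groups did not overlap for any of the 4, but by a factor of only 1.06 for Cdk2. The difference in fold change between these kinases was not tested.

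**Figure D2:**
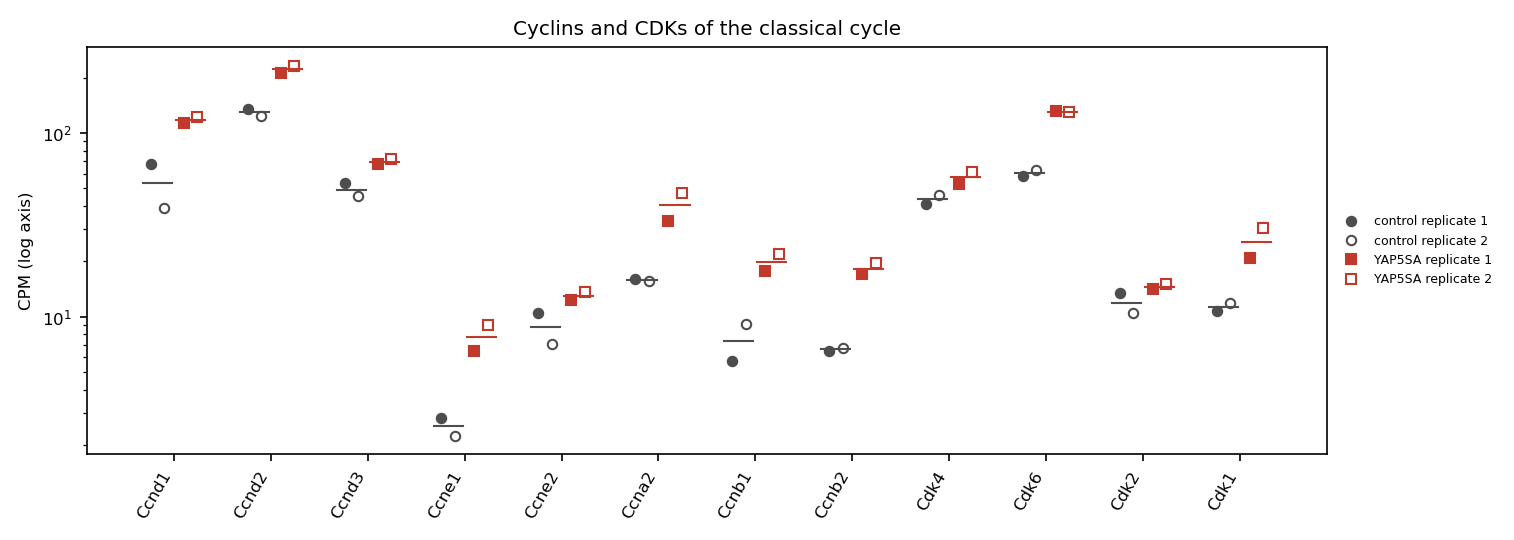
Levels of the 12 tested cyclins and CDKs of the classical cycle in each library, with genes on the horizontal axis and CPM on a log vertical axis; circles are control and squares YAP5SA, filled for replicate 1 and open for replicate 2, and the short line is the mean of the 2 libraries. Every YAP5SA point lies above both control points of its gene, from Ccne1 at 2.25 to 8.96 CPM up to Ccnd2 at 125 to 233 CPM.

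Levels of different genes were compared per kilobase of merged exon in GENCODE M21, a scale that holds only if the counting took exonic reads; the labels do not say whether it did. On that scale Cdk4 was the most abundant classical CDK in control (12.7 and 14.1 CPM per kilobase in replicates 1 and 2), followed by Cdk6 (4.16 and 4.48). Cdk1 (2.19 and 2.41) and Cdk2 (2.16 and 1.68) were lower, and their control libraries nearly met. In YAP5SA the levels per kilobase were 16.3 and 18.9 for Cdk4, 9.42 and 9.25 for Cdk6, 4.21 and 6.17 for Cdk1 and 2.28 and 2.42 for Cdk2, so that the kinases kept this order with no overlap between neighbours. Among the D-type cyclins, Ccnd1 (14.3 and 8.34 in control, 24.0 and 26.0 in YAP5SA) and Ccnd2 (14.4 and 13.2, then 22.5 and 24.8) overlapped on this scale in both groups. Ccnd3 was below both (6.07 and 5.15 in control, 7.71 and 8.21 in YAP5SA).

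Promoter sequences are shown for the members that rose, because genes of the late cycle are known to share short elements near their start: CCAAT boxes, bound by NF-Y, and the CHR element, through which MuvB complexes silence and later activate them. Of the 49 members, 39 matched an entry of RefSeq's promoter table (GRCm38.p6, the assembly of mm10), and Ccna2 did not. The 250 bases before the start were searched on both strands for CCAAT, the CHR letters TTTGAA, the E2F-like letters TTTGGCGC, TTTCGCGC and TTTCCCGC, and the TEAD letters GGAATG. Matches are in capitals, all other bases are in lower case, each sequence reads 5′ to 3′ on the gene's strand, and no match overlaps another. Cdk1 and Ccnb1, which did not pass the threshold, were added after their values were seen, to set the mitotic genes side by side.
Ccnb2 (chr9:70421555-70421804, minus strand): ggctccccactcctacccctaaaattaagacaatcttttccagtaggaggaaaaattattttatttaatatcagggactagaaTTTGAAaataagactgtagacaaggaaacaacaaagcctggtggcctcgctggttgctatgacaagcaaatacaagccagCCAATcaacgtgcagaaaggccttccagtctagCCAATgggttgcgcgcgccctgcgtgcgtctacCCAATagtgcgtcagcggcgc
Ccnb1 (chr13:100786487-100786736, minus strand): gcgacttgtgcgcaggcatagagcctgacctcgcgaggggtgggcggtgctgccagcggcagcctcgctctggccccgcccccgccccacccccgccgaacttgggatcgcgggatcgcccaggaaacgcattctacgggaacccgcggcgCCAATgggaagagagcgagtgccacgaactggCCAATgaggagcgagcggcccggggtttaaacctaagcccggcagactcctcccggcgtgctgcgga
Cdk1 (chr10:69352913-69353162, minus strand): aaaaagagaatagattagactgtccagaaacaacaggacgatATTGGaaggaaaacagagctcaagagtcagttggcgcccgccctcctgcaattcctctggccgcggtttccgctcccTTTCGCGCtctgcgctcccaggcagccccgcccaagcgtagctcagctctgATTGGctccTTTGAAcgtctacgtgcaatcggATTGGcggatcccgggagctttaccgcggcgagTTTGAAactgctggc
Cdk6 (chr5:3343643-3343892, plus strand): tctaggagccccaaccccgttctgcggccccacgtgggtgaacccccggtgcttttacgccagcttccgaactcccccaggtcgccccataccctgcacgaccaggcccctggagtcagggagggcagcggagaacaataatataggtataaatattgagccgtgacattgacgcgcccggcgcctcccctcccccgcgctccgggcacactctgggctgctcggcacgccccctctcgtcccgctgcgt
Cdk18 (chr1:132139686-132139935, minus strand): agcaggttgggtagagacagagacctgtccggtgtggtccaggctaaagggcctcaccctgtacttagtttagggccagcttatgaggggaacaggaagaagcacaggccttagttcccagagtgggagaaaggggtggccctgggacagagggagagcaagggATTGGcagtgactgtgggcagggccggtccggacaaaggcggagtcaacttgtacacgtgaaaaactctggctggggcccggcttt
Cdk15 (chr1:59256656-59256905, plus strand): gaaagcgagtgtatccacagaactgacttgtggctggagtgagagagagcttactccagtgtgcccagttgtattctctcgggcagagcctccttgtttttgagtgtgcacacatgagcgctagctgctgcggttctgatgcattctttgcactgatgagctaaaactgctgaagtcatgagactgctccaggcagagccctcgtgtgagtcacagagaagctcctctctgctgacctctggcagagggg

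Over the 39 members with an entry, 19 held CCAAT before the start, 6 held TTTGAA, 3 an E2F-like match and 4 GGAATG. The 4 with both CCAAT and TTTGAA in 1 entry were Ccnb2, Cdk1, Ccnf and Cdk16, of which only Ccnb2 rose. Ccng1 and Ccnt2, which did not rise, held as many CCAAT matches as Ccnb2. Ccnb2 had 3 CCAAT matches, at -87, -54 and -21 (position of the first base, with -1 just before the start), and a TTTGAA at -167. Past the printed window, in the 50 bases after the start, Ccnb2 had a further TTTGAA at position 5. Ccnb1 had 2 CCAAT matches, at -99 and -67, and no TTTGAA. Cdk1 had 3 CCAAT matches on the other strand, at -208, -80 and -48, a TTTGAA at -71 and at -15, and the E2F-like TTTCGCGC at -131. Cdk18 had 1 CCAAT match, at -86 on the other strand, and Cdk6 and Cdk15 had none of the letters searched in their windows. The Cdk6 window (3343643 to 3343892) lies inside the GENCODE M21 gene, which starts at 3341485. The bases before that start were not searched. The windows of Ccnb1 and Cdk1, on the minus strand, run partly into their GENCODE M21 genes, which begin at 100786570 and 69352938. The Ccnb1 match at -67 and the Cdk1 TTTGAA at -15 thus lie inside those genes. Of all 32851 entries in the table, 33.8% held CCAAT in this window, 16.0% held TTTGAA, 5.55% held both, 1.53% held an E2F-like match and 12.6% held GGAATG. None of these 6 promoters held GGAATG, which says only that these letters are not in this window.

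Of the 8 CDKs outside the classical cycle and transcription, Cdk15 and Cdk18 rose and 0 fell, against 3.12% and 0.999% of all tested genes. All 8 fold changes were positive, as were those of 8104 of the 17715 tested genes. The median log2 value of the 8 was 0.30 and stays the same with Cdk15 placed at its lower bound. Cdk15 entered the test only through its YAP5SA libraries. Cdk15, a relative of the membrane-associated kinase CDK14 (chromosome 1, 59256906 to 59352993), was at 0 counts in each control library and at 73 and 90 in YAP5SA, or 4.92 and 6.84 CPM. Against a floor of 3 counts per control library, it was at least 17.6-fold higher (adjusted p = 0.0287). Cdk18, a kinase of the PCTAIRE group with CDK16 and CDK17 (chromosome 1, 132112237 to 132139684), measured 25.8 and 19.0 CPM in control and 54.0 and 58.9 CPM in YAP5SA, a 2.51-fold increase (log2 fold change 1.33, SE 0.211, adjusted p = 0.0400). Its relatives did not pass. Cdk16 measured 116 and 98.3 CPM in control and 113 and 115 CPM in YAP5SA (log2 fold change 0.09, adjusted p = 0.796). Cdk17 measured 47.8 and 70.7 CPM against 71.1 and 68.2 CPM (log2 fold change 0.24, adjusted p = 0.576). Both overlapped between the groups. Without YAP5SA replicate 1, Cdk15 but not Cdk18 was called, and without YAP5SA replicate 2 neither was. A replicate block kept the call of Cdk15 (adjusted p = 0.031) and lost that of Cdk18 (0.0555).

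Cdk14, which pairs with cyclin Y at the plasma membrane (chromosome 5, 4803391 to 5420312), measured 32.8 and 43.8 CPM in control and 61.6 and 66.0 CPM in YAP5SA. Its log2 fold change of 0.74 (SE 0.201) did not pass (adjusted p = 0.108), and the groups did not overlap. Ccny, the gene of that cyclin, measured 135 and 92.8 CPM in control and 83.7 and 82.6 CPM in YAP5SA (log2 fold change -0.45, SE 0.221, adjusted p = 0.286), so the 2 partners differed in sign without either being called. Cdk5, Cdk10 and Cdk20 had log2 fold changes from 0.10 to 0.36, with adjusted p from 0.552 to 0.850, and overlapped between the groups. The sign of Cdk10 and Cdk17 turned without control replicate 1 and that of Cdk20 without control replicate 2.

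**Figure D3:**
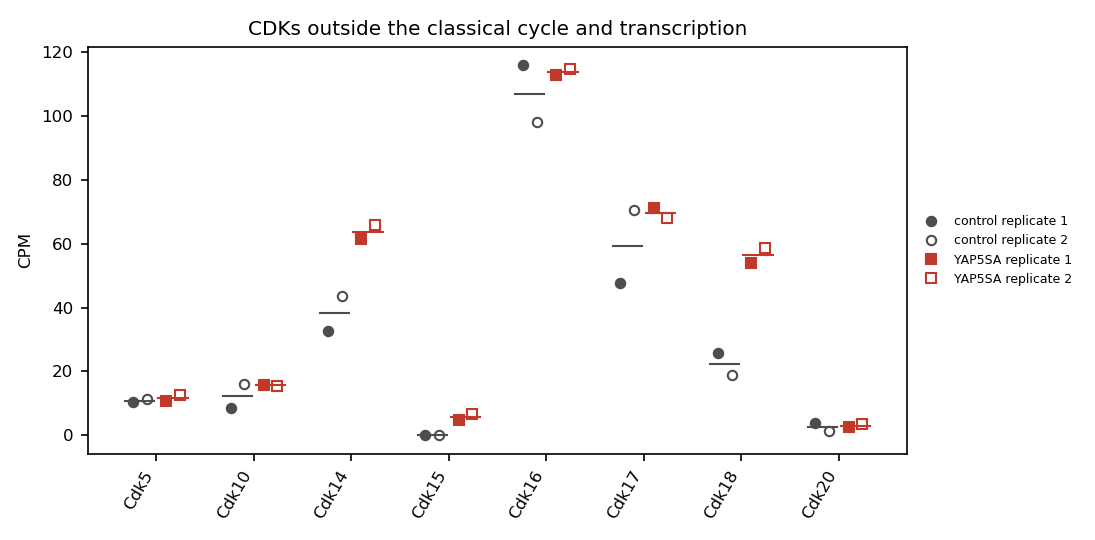
Levels of the 8 CDKs outside the classical cycle and transcription in each library, with genes on the horizontal axis and CPM on a linear vertical axis; circles are control and squares YAP5SA, filled for replicate 1 and open for replicate 2, and the short line is the mean. Cdk14, Cdk15 and Cdk18 are the genes whose YAP5SA points lie above both control points, with Cdk15 at 0 in control. Of all tested genes, 28.1% lay above in the same way.

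None of the cyclins and CDKs of transcription was called in any fit of all 4 libraries. Some were called, in both directions, when a control library was left out. Of 13 tested genes, 0 passed with edgeR or DESeq2, and log2 fold changes ran from -0.37 to 0.48 with a median of -0.17. At an unadjusted p under 0.05, 1 was higher and 0 lower, against 12.7% and 10.9% of all genes. The 1 gene was Cdk7, the kinase that activates other CDKs and belongs to the transcription factor TFIIH (chromosome 13, 100702631 to 100730939). It measured 58.4 and 62.3 CPM in control and 87.4 and 80.6 CPM in YAP5SA (log2 fold change 0.48, SE 0.158, adjusted p = 0.153). Its cyclin partner Ccnh measured 23.2 and 23.3 CPM in control and 22.4 and 23.7 CPM in YAP5SA (log2 fold change -0.01, SE 0.17, adjusted p = 0.981). The partners thus gave different values, the kinase gene without overlap and the cyclin gene with almost equal libraries, but their difference was not tested. Exons of Ccnh overlap those of Rasa1 on the other strand, which had 1035 and 779 counts in control and 1421 and 1150 in YAP5SA.

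Genes of the pairs that phosphorylate RNA polymerase II during elongation had log2 fold changes from -0.37 to 0.27. Cdk9 measured 35.8 and 24.9 CPM in control and 37.6 and 35.7 CPM in YAP5SA (log2 fold change 0.27, adjusted p = 0.508), and its partners Ccnt1 and Ccnt2 had log2 fold changes of -0.04 and -0.37 (adjusted p = 0.910 and 0.463). Cdk12, Cdk13 and their partner Ccnk had log2 fold changes of -0.27, -0.22 and -0.26 (adjusted p from 0.375 to 0.539). For the kinase module of Mediator, they were -0.17 for Cdk8, -0.34 for Cdk19 and 0.07 for Ccnc (adjusted p from 0.363 to 0.852). The splicing-linked cyclins Ccnl1 and Ccnl2 had -0.16 and -0.22 (adjusted p = 0.671 and 0.570). YAP5SA libraries lay below both control libraries for Cdk12, Cdk19 and Ccnk, without a call, as they did for 28.3% of all tested genes. Leaving out a control library moved the transcription cyclins and CDKs: their median log2 fold change was -0.23 without control replicate 1 and 0.047 without control replicate 2. In these fits, in the same order, Ccnt2 was at -0.673 and 0.074 and Cdk9 at 0.569 and 0.071.

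No CDK inhibitor passed: of 7 tested genes, 0 were called with edgeR or DESeq2. At an unadjusted p under 0.05, 3 were higher and 0 lower, against 12.7% and 10.9% of all genes. Among these 3 was Cdkn2a, which passed the low-count filter only through its YAP5SA libraries. Cdkn1a, which encodes p21, the inhibitor induced by p53 (chromosome 17, 29090976 to 29100727), measured 334 and 95.7 CPM in control and 112 and 109 CPM in YAP5SA. Control replicate 1 was 3.49 times control replicate 2, and the YAP5SA libraries lay between them, so the log2 fold change of -0.96 (SE 0.556, adjusted p = 0.351) turned to 0.22 without control replicate 1 (adjusted p = 0.221). Without control replicate 2 it was -1.56. Cdkn1b, which encodes p27 (chromosome 6, 134920401 to 134925513), measured 48.7 and 35.2 CPM in control and 31.4 and 30.8 CPM in YAP5SA, below both control libraries (log2 fold change -0.44, SE 0.212, adjusted p = 0.285). Cdkn1c, which encodes p57 and is imprinted (chromosome 7, 143458339 to 143461050), measured 14.8 and 8.46 CPM in control and 21.2 and 20.7 CPM in YAP5SA, above both (log2 fold change 0.84, SE 0.3, adjusted p = 0.175). The 3 CIP/KIP genes thus differed in sign. Without control replicate 1 or 2, the log2 fold change was -0.17 or -0.61 for Cdkn1b and 1.315 or 0.541 for Cdkn1c.

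All 4 INK4 genes had positive fold changes, except that Cdkn2b was at -0.009 without control replicate 2. Cdkn2a (chromosome 4, 89274471 to 89294653), whose locus encodes both p16 and ARF under 1 symbol, was near the floor of 3 counts in control, with 2 and 3 counts, and had 14 and 13 in YAP5SA. These are 0.181 and 0.397 CPM against 0.943 and 0.987 CPM (log2 fold change 1.78, SE 0.6, adjusted p = 0.158). Its neighbour Cdkn2b, which encodes p15 (chromosome 4, 89306299 to 89311039), measured 3.71 and 2.38 CPM in control and 3.84 and 3.34 CPM in YAP5SA and overlapped (log2 fold change 0.22, adjusted p = 0.758). Cdkn2c, which encodes p18 (chromosome 4, 109660876 to 109667189), measured 15.9 and 14.8 CPM in control and 21.4 and 23.4 CPM in YAP5SA without overlap (log2 fold change 0.55, SE 0.185, adjusted p = 0.159). Cdkn2d (chromosome 9, 21288410 to 21291407) measured 12.9 and 10.3 CPM against 11.7 and 14.1 CPM and overlapped (log2 fold change 0.15, adjusted p = 0.747). The log2 fold change of Cdkn2c was 0.605 without control replicate 1 and 0.535 without control replicate 2.

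The widest gap between the control libraries among tested members was that of Ccnf. Ccnf, whose product is the F-box protein cyclin F of an SCF ubiquitin ligase (chromosome 17, 24222198 to 24251484), measured 63.5 CPM in control replicate 1 and 7.80 CPM in control replicate 2, an 8.14-fold gap. In YAP5SA it measured 10.7 and 11.9 CPM, between the control values, and its log2 fold change of -1.68 (SE 0.871) was not called (adjusted p = 0.309). Without control replicate 1 the fold change of Ccnf turned to 0.53 (adjusted p = 0.0929). Ccng2, a cyclin linked to cell cycle arrest, measured 31.9 and 11.5 CPM in control and 10.6 and 12.2 CPM in YAP5SA (log2 fold change -0.94, adjusted p = 0.298). Its relative Ccng1, a p53 target, measured 184 and 226 CPM in control and 189 and 207 CPM in YAP5SA (log2 fold change -0.05, adjusted p = 0.905). Control replicate 1 was thus the high library for Ccnf, Ccng2 and Cdkn1a but not for Ccng1. Ccni and Ccnj had log2 fold changes of -0.12 and 0.02 and overlapped between the groups. Without control replicate 2, the log2 fold changes of Ccnf, Ccng2, Ccni and Ccny were -2.46, -1.45, -0.39 and -0.66. Without control replicate 1, those of Ccng2, Ccni and Ccny were -0.011, 0.29 and -0.15.

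**Figure D4:**
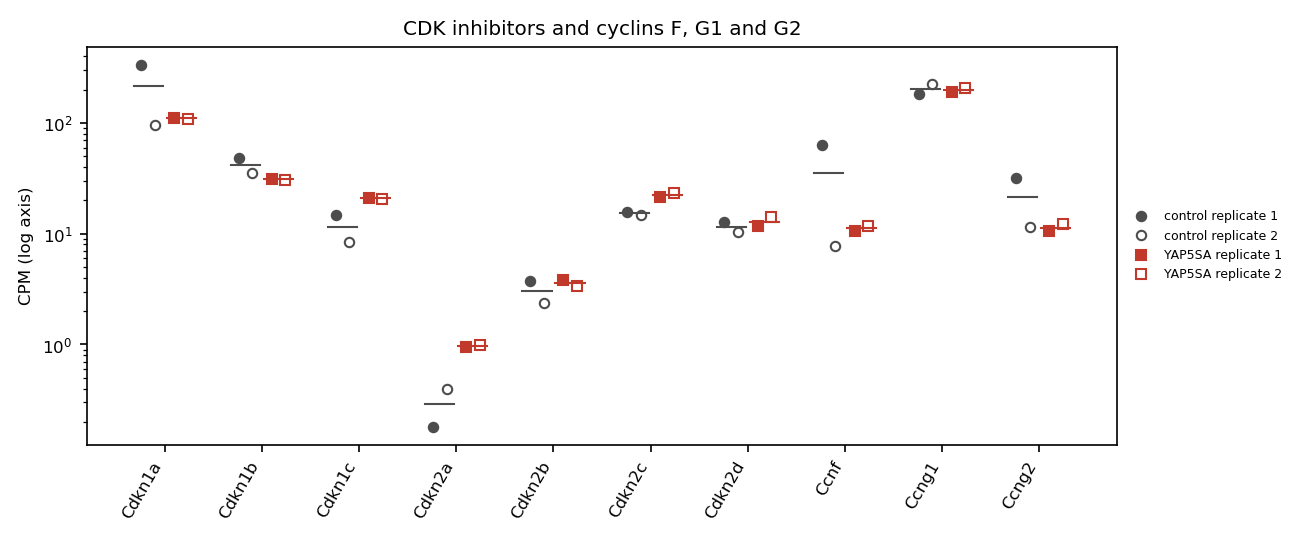
Levels of the 7 CDK inhibitors and of cyclins F, G1 and G2 in each library, with genes on the horizontal axis and CPM on a log vertical axis; circles are control and squares YAP5SA, filled for replicate 1 and open for replicate 2, and the short line is the mean. For Cdkn1a and Ccnf the 2 control points stand apart (334 and 95.7 CPM, 63.5 and 7.80 CPM) and both YAP5SA points fall between them.

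Genes that act on the members were summarised from lists, described by counts beside those of all tested genes. Of the latter, 3.12% were called higher and 0.999% lower, 28.1% did not overlap upward and 28.3% downward, and the median was -0.06. At an unadjusted p under 0.05, 12.7% of them were higher and 10.9% lower. Of 12 activators and inhibitory kinases of CDKs, 1 rose and 0 fell, 8 were higher at an unadjusted p under 0.05, and the median log2 fold change was 1.01. Plk1, a mitotic kinase that promotes CDK1 activation, rose from 6.97 and 7.67 CPM to 16.1 and 19.8 CPM (adjusted p = 0.0480), and Cks1b, a CDK-binding subunit, measured 6.16 and 7.40 CPM against 15.5 and 16.5 CPM (adjusted p = 0.0511). Of 19 RB, E2F and DREAM genes, 2 rose and 0 fell, 14 did not overlap upward and 2 downward, and the median was 0.52. E2f2, an activator E2F, rose from 1.54 and 2.51 CPM to 7.68 and 11.2 CPM (adjusted p = 0.0479), and Foxm1, the transcription factor of mitotic genes, from 13.4 and 13.2 CPM to 25.5 and 30.1 CPM (adjusted p = 0.0493). Rb1 itself measured 58.9 and 57.8 CPM in control and 67.1 and 57.6 CPM in YAP5SA (adjusted p = 0.766).

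Of 15 genes of cyclin and inhibitor degradation, 1 rose and 0 fell, with a median log2 fold change of 0.20. Ube2c, the ubiquitin-conjugating enzyme of the anaphase-promoting complex, rose from 3.89 and 4.76 CPM to 14.5 and 22.6 CPM (log2 fold change 2.10, SE 0.318, adjusted p = 0.0373), and Fbxo5, which encodes an inhibitor of that complex, measured 3.44 and 3.70 CPM against 7.01 and 8.13 CPM (adjusted p = 0.103). Of 7 tested p53 and MYC regulators 0 passed, and Myc measured 31.2 and 57.1 CPM in control and 126 and 110 CPM in YAP5SA (log2 fold change 1.42, SE 0.31, adjusted p = 0.0698), with Mycn at an adjusted p of 0.0983. Of 11 partners of P-TEFb and of the Mediator kinase module 0 passed and 0 had an unadjusted p under 0.05 (median -0.09), the smallest adjusted p being 0.410 for Hexim2. Of 4 tested CDK5 activators and binding proteins 0 passed (median -0.39), with Cdk5rap1 at an adjusted p of 0.163 and Cdk5r1 at 0.292.

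The number of calls depended on the libraries and the test. DESeq2 called 10 members higher and 0 lower, against 5.72% and 2.82% of all genes with an adjusted p. Without any filter on low counts, edgeR called 12 of 48 members higher and 3 lower (Ccnf, Ccng2 and Cdkn1a), against 5.65% and 5.53% of all genes, and a stricter filter left 3 calls (Ccnb2, Cdk6 and Cdk18) against 3.11%. Without control replicate 1, 17 members were higher and 4 lower, with 18.8% and 17.4% of all genes, and without control replicate 2, 18 of 47 were higher and 7 lower, with 19.7% and 18.6%. Without YAP5SA replicate 1 only Cdk15 was called (1 higher, 0 lower, with 0.362% and 0.0266% of all genes), and without YAP5SA replicate 2 no member was (0.143% and 0.0% of all genes, with 7 members higher and 0 lower at an unadjusted p under 0.05). In each of these 4 fits the single library of its group was taken to vary like the remaining pair.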

How the data were processed

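Nuclear RNA-seq libraries, 2 control and 2 YAP5SA, were analysed from the authors' deposited table of raw counts per gene symbol, not normalized. STAR mapped the reads to mm10 and DESeq2 was the authors' test, both per the labels' protocols. Not given in the sources used here are the counting program, its strand setting, the annotation and the treatment of intronic reads. Exons of 20 members overlap a gene on the other strand in GENCODE M21, where reads cannot be told apart. The ATAC-seq and 4C-seq samples were not analysed here.

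Genes were kept by filterByExpr (minimum count 10, 17715 genes) and scaled by TMM. The edgeR 4.0.16 quasi-likelihood F test (R 4.3.3, group only) compared YAP5SA with control across all genes, with Benjamini-Hochberg adjustment over all of them and a threshold of 0.05. All adjusted p-values are from this test unless another is named, and SE is the size of the log2 fold change over the square root of F. DESeq2 1.42.0, limma-voom (limma 3.58.1), other scalings, other filters, a replicate block and fits without each library were alternatives. The pipeline was tested on simulated data. The labels do not say that replicates are separate animals, so p-values measure only how far these libraries differ, possibly for technical reasons. A count of 0 allows up to 3 counts, or 0.200 to 0.382 CPM on unscaled library totals. For the bound of Cdk15, on TMM-scaled totals, this was a mean of 0.334 CPM over the control libraries. The allowance covers counting error only.

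Members and lists were chosen with earlier results of these data known. Values are given for every member past the threshold, every member with an unadjusted p under 0.05, the classical cyclins and CDKs and all inhibitors, and for the genes with the 2 smallest adjusted p of each pathway list. A few genes this rule or a marker list covers are not reported here. Any further gene was picked with its values in view. Coordinates are GENCODE M21 on GRCm38, where all 49 symbols matched, and promoters are from RefSeq (GRCm38.p6).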

Additional observations from a re-analysis of the deposited data

How the results depend on the processing

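The 5 members called higher by edgeR were also called with DESeq2 size factors and with library totals alone, and 4 of them with limma-voom, which lost Ccna2. The count was 10 with DESeq2, 12 with no filter on low counts, 3 with the stricter filter (mean of at least 5 CPM, which removes Cdk15) and 0 to 18 when 1 library was left out. The count lower was 3 with no filter and 0 to 7 when 1 library was left out, and 0 otherwise. The median log2 fold change of tested members, 0.22, was 0.078 with the stricter filter, which tests 42 members, and 0.12 to 0.33 when 1 library was left out. Of 46 tested members, 15 changed sign in at least 1 fit. Over the fits without 1 library, Cdkn1a ran from -1.56 to 0.22, Cdkn2b from -0.009 to 0.603, Ccnf from -2.46 to 0.53 and Cdk20 from -0.28 to 1.21. The others were Ccng1, Ccnh, Ccni, Ccnj, Ccnl1, Ccnl2, Ccnt1, Ccnt2, Cdk8, Cdk10 and Cdk17, with extremes between -0.67 and 0.90. The causes of these changes were not tested. The deviations of same-numbered replicates had a correlation of -0.09 over genes. With 2 libraries per group this cannot decide whether the replicate numbers pair the libraries. A replicate block left 1 call, Cdk15, with 1.81% of all genes called higher, and gave a median of 0.26. With 2 libraries per group, the smallest log2 fold change called among members was 1.11 (Cdk6), while Ccnd1 at 1.14 was not called.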

Other observations

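Cyclin-like and CDK-like genes whose symbols fall outside the naming rule showed no call among 14 tested (0 with an adjusted p under 0.05, 2 higher and 1 lower at an unadjusted p under 0.05). Of all tested genes, 3.12% were called higher and 0.999% lower, with 12.7% and 10.9% at the unadjusted p. Cdkl3 and Cdkl1, genes of CDK-like kinases, differed in sign. Cdkl3 measured 13.2 and 7.93 CPM in control and 4.04 and 4.03 CPM in YAP5SA (log2 fold change -1.40, SE 0.34, adjusted p = 0.0858). Cdkl1 measured 2.08 and 6.08 CPM in control and 12.3 and 12.2 CPM in YAP5SA (log2 fold change 1.62, SE 0.501, adjusted p = 0.136). For both the groups did not overlap. Cdk11b, the partner kinase of the L-type cyclins, measured 50.3 and 45.5 CPM in control and 44.7 and 47.3 CPM in YAP5SA (adjusted p = 0.863).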
